A study of Homo sapiens with 4 samples.

Results

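Circular RNAs hosted by the DEAD-box (DDX) and DEAH-box (DHX) RNA helicase genes were taken from a table of circular RNA counts. A circle was included when it was not classed as antisense and any gene named for it had a symbol made of DDX or DHX and digits, with an optional final letter. This gave 1071 of 211599 circles, of which 985 had at least 1 count, spread over 40 host genes. Together they held 5496 of the 1702290 counts (0.323%). Of the 54 protein-coding symbols of this form in RefSeq (GRCh38.p14), 38 had at least 1 circle count, and the other hosts were DDX12P and the symbol DDX12B, which RefSeq's table does not list.

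MDA-MB-468, a line established from human breast cancer, had been made radioresistant by fractionated irradiation to a total of 50 Gy. The cells carried either a control hairpin (shCtrl, "control") or a stable hairpin against HNRNPL (shHNRNPL, "knockdown"), an RNA-binding protein of pre-mRNA splicing. Each group had 2 libraries, described by the submitters as biological replicates, and the radioresistant state was common to all 4. A single HNRNPL hairpin is named, and the level of HNRNPL itself was not analysed here. Libraries were made by rolling-circle reverse transcription and amplification of total RNA and read on a nanopore sequencer (Induro-mediated circular RNA sequencing). The question put to these circles was how their amounts and their back-splice choices differed between knockdown and control.

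Circular RNAs form when the 3′ end of an exon (the donor) is joined to the 5′ end of the same or an upstream exon (the acceptor), and lacking free ends they outlast most linear transcripts. DEAD-box and DEAH-box proteins are ATP-driven enzymes that open RNA duplexes or strip proteins from RNA, and different members act in splicing, ribosome assembly, translation, decay and the sensing of double-stranded RNA. DHX9 unwinds the paired inverted Alu repeats that bring flanking introns together, and its loss is known to raise circle formation, so it is both a regulator of circles and a host of them.

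Library totals ran from 282737 to 556578 counts, and 3 counts, used here as the detection floor, corresponded to 0.539 to 1.06 per 100000. Amplified reads without molecular identifiers are not independent molecules, so intervals given below cover counting error only. Values per 100000 are relative to each library's total count and are not corrected for circle length. Control replicate 1 stood apart from the other libraries: 70.9% of its counts lay in exon circles against 84.9% to 85.7% elsewhere, and 0.943% were mitochondrial against 0.0018% to 0.107%. Its normalisation factor in the host gene fit (TMM, trimmed mean of M-values) was 1.27, against 0.872 to 0.991, so fitted changes of host genes lay above the plain ratios of counts per 100000. In the circle fit its factor was 1.01, against 0.925 to 1.08, without that shift. Log2 fold changes of a host and of its circles are therefore not on the same scale. Circles were counted for 6 of 9 epithelial marker genes (KRT8, KRT18 and KRT19 had none) and for 0 of 5 leukocyte and 0 of 4 endothelial markers. Of 5 fibroblast markers FAP alone had counts, 4 in control replicate 1. Summed epithelial circles lay at 87.3 to 131 per 100000 in the control and 56.8 to 60.5 in the knockdown libraries. GRHL2 alone held 1071 of these 1496 counts. GRHL2, EPCAM and EGFR lay lower in both knockdown libraries, whereas CDH1, ESRP1 and KRT5 (2 counts) had overlapping groups. The part of these differences in the results was not tested. In such bulk libraries fewer cells that express a host and less circular RNA per cell cannot be told apart.

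As a family, the helicase-hosted circles took a smaller share of the library in the knockdown. They made up 0.365% of counts in control replicate 1 (95% Wilson interval 0.348% to 0.382%) and 0.354% in control replicate 2 (0.339% to 0.370%). In the knockdown they made up 0.268% (0.250% to 0.288%) and 0.267% (0.252% to 0.284%). The means were 0.359% ± 0.00721 and 0.268% ± 0.000549 (SD, n = 2), a ratio of 0.745, and the libraries of the 2 groups did not overlap; no test was made, since the family was chosen with results known. Scaled by library totals alone, the median helicase host had a log2 fold change of -0.56 and the median of all host genes one of -0.60, so the median host of any kind also had a lower share in the knockdown.

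The number of different helicase-hosted circles depended mostly on control replicate 1. Thinned to an equal depth of 282737 counts, control replicate 1 was expected to show 451 different circles, control replicate 2 showed 344, and the knockdown libraries 321 and 313. The means differed by a ratio of 0.798, which became 0.922 without control replicate 1. The count-weighted median circle length was 1273 and 1152 nt in the control and 1127 and 1073 nt in the knockdown, whereas over all circles it was 1363 and 1255 nt against 1381 and 1279 nt. Intron circles held 17.5% (replicate 1) and 8.62% (replicate 2) of helicase-hosted counts in the control, and 7.92% and 8.33% in the knockdown.

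Counts were uneven among hosts and scattered over many rare circles. The 5 most abundant hosts held 44.6% of the family's counts, 17 hosts had at least 100 counts and 6 had at least 300. Circles with under 10 counts held 46.5% of the family's counts, against 29.1% over all circles, and 527 of the 985 counted circles (53.5%) were seen in 1 library, against 58.3% of all circles. Over the 39 hosts with a RefSeq length, Spearman's rho was 0.955 between counts and number of different circles and 0.406 between counts and gene length, both across genes that share the same 4 libraries.

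**Figure D1:**
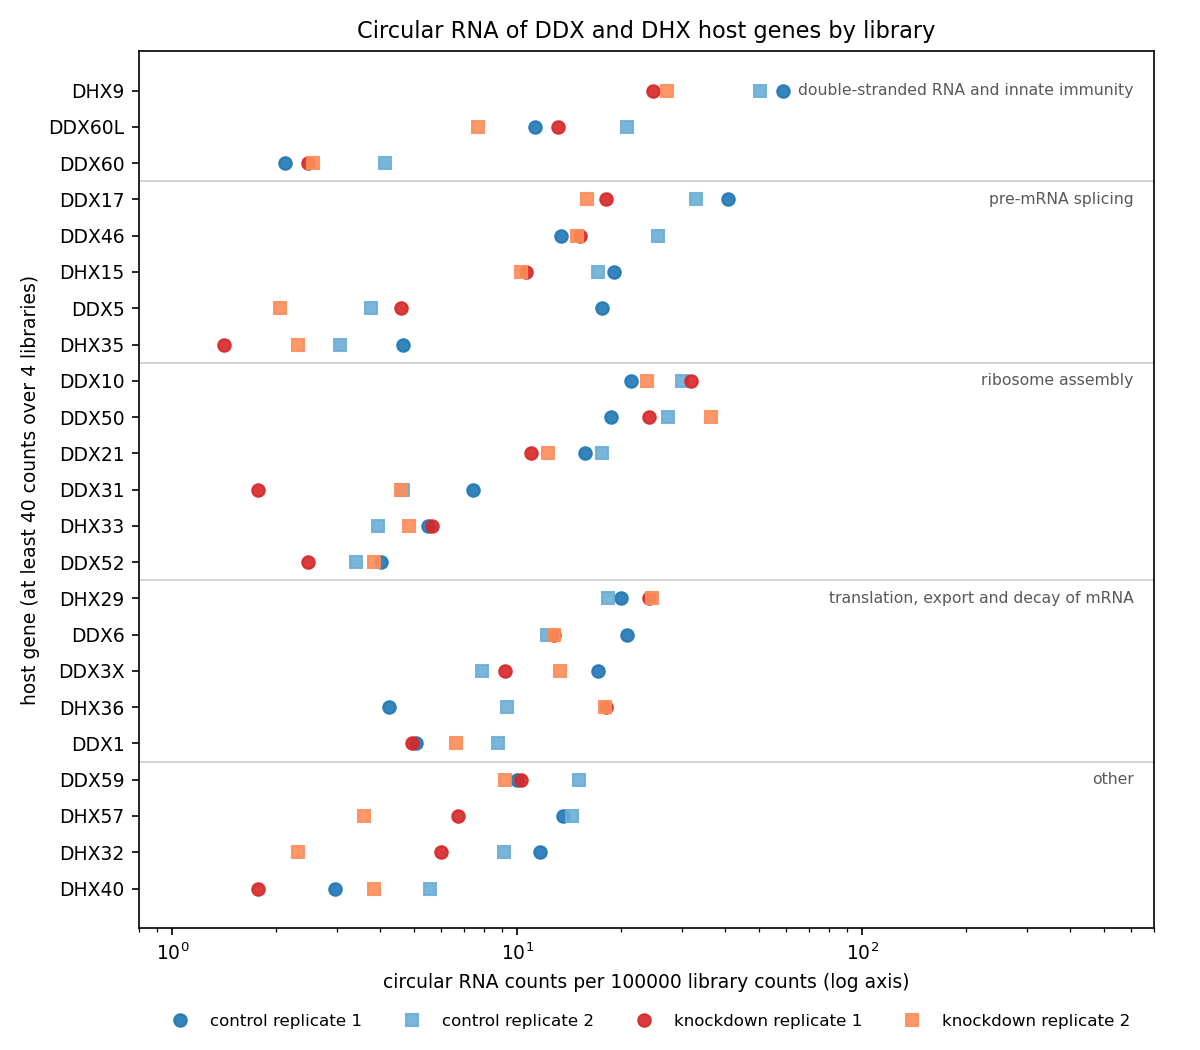
Counts per 100000 library counts (log axis) of the 23 DDX and DHX host genes with at least 40 counts, grouped by role, with 1 point per library (blue, control; red and orange, knockdown; circles, replicate 1; squares, replicate 2). DHX9, DDX17 and DHX57 lie lower in both knockdown libraries than in both control libraries, and DHX36 and DHX29 lie higher.

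For the test of host genes, each circle was counted for every gene it names, and 8379 host genes with at least 10 counts over the libraries were fitted with edgeR's quasi-likelihood test. Of all host genes, 37 (0.442%) passed an adjusted p of 0.05, all with more circular RNA in the knockdown. Of the 32 helicase hosts that reached 10 counts, none passed. At an unadjusted p under 0.05, 1 was higher (DHX36) and 2 were lower (DHX57 and DDX17), against 7.58% higher and 6.17% lower over all host genes. DESeq2 called 0 of them as well, with 1 past its unadjusted p. The median log2 fold change of the 32 was -0.25, against -0.26 over all host genes. Of the 32, 10 were positive and 22 negative, against 3389 and 4990 of all host genes.

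The 2 groups of libraries did not overlap for 3 helicase hosts that were higher in the knockdown (DHX29, DHX36 and DHX34) and for 10 that were lower. Over all host genes the same held for 15.3% and 36.7%, so the helicase shares of 9.38% and 31.2% lay below or near the background. The values depended on the libraries used. Without control replicate 1 the median log2 fold change was -0.38 for the helicase hosts and 0.02 over all host genes. Without control replicate 2 the medians were 0.12 and -0.13. In such a fit the lone library left in a group is assumed to vary like the other group's. With 1 control library left out, far more of all host genes and circles passed, but not with 1 knockdown library left out. Adjusted p-values from such fits are therefore not given for single hosts or circles.

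**Figure D2:**
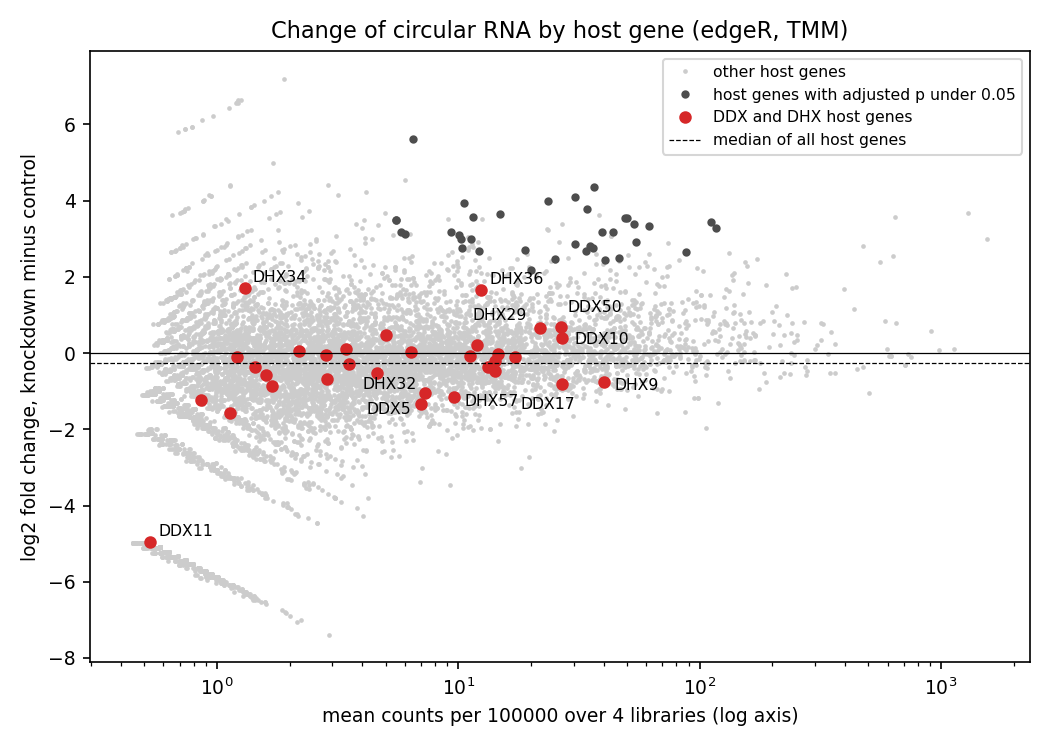
Log2 fold change of host gene sums, knockdown minus control (edgeR, TMM), against the mean counts per 100000 over the 4 libraries (log axis). Red points are the 32 DDX and DHX hosts, dark points the 37 host genes with an adjusted p under 0.05, and the dashed line the median of all host genes at -0.26. DHX36 lies above and DHX57, DDX17 and DHX9 below the line, and no red point is among the dark ones.

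By role, the direction of change was not uniform. Over all host genes, 4990 of 8379 were negative. All 8 tested hosts that act in pre-mRNA splicing had a negative log2 fold change (median -0.52), although DHX8 turned positive with DESeq2's size factors. DHX8 was also positive without control replicate 1 or knockdown replicate 1, and DDX42 without knockdown replicate 2. Of the 7 hosts of translation, export and decay 5 were positive (median 0.22), but 3 with library-size scaling and 6 with DESeq2's size factors. Of the 9 hosts of ribosome assembly 5 were positive (median 0.05), and 3 with library-size scaling. All 3 hosts linked to double-stranded RNA and innate immunity and all 4 without an assigned role were negative, except that DDX60 turned positive with DESeq2's size factors. Without knockdown replicate 1 DDX60 and DHX40 were positive. Without control replicate 2 these patterns thinned: 3 of the 8 splicing hosts, 2 of the 3 hosts of double-stranded RNA and innate immunity and 2 of the 4 without an assigned role were then positive.

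DHX9 was the most abundant helicase host. It unwinds double-stranded RNA in the nucleus and restrains circles that arise from paired Alu repeats. Its gene lies on chr1:182839347-182887982, plus strand, and gave 128 different circles. Their summed counts were 278 and 280 in the control libraries and 70 and 106 in the knockdown libraries, or 58.8 and 50.3 against 24.8 and 27.1 per 100000. Both knockdown libraries were thus below both control libraries, with means of 54.6 ± 6.04 and 25.9 ± 1.69 per 100000 (SD, n = 2), a ratio of 0.475. In the fit the log2 fold change was -0.75 ± 0.33 (SE), with an edgeR adjusted p of 0.367, so the difference did not pass. It was -1.09 with library-size scaling.

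The DHX9 circles clustered in the 3′ part of the gene and shared few back-splice sites. The acceptor at 182872337 took 39.5% of the exon-circle counts and the acceptor at 182874854 took 21.4%, while the donor at 182880608 took 44.0% and the donor at 182883635 took 15.8%. The leading circle, chr1:182872337-182880608, joins 8 exons into 1067 nt and had 66, 58, 14 and 30 counts in control replicates 1 and 2 and knockdown replicates 1 and 2, in that order. The form that begins an exon later, chr1:182874854-182880608 (7 exons, 910 nt), had 12, 51, 5 and 6 counts in the same order. Control replicate 2 alone was high for this shorter form, although both knockdown libraries stayed below both controls for each. The log2 fold changes were -1.01 ± 0.49 (edgeR adjusted p = 0.430) and -1.77 ± 0.66 (edgeR adjusted p = 0.323). For the shorter form it was -2.30 without control replicate 1 (edgeR adjusted p = 4.85e-05) and -0.88 without control replicate 2 (0.284).

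Longer DHX9 forms from the same acceptors were rarer. The circles that run on to the donor at 182883635 were chr1:182872337-182883635 (12 exons, 1703 nt), with 9, 25, 4 and 7 counts, and chr1:182874854-182883635 (11 exons, 1546 nt), with 8, 17, 3 and 4 counts. At the donor at 182881647, chr1:182874854-182881647 (9 exons) had 3, 5, 8 and 3 counts and chr1:182872337-182881647 (10 exons) had 5, 6, 0 and 1. From acceptors farther upstream, chr1:182856532-182876541 (12 exons) had 3, 8, 1 and 2 counts and chr1:182859993-182880608 (11 exons) had 0, 6, 3 and 4. The counts of these last 4 forms are too low to order the groups.

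The 3 intron circles of DHX9 with at least 10 counts were each uneven between replicates. The circle at 182843435-182845243 had 14 counts in control replicate 1 and 0 in the other libraries. The circle at 182859118-182859974 had 1, 11, 0 and 3 counts, and that at 182884814-182887082, near the 3′ end of the gene, had 4, 0, 4 and 5. Intron circles held 17.3% of all DHX9 counts. Restricted to exon circles, the log2 fold change of DHX9 was -0.90, again short of the threshold (edgeR adjusted p = 0.192).

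Of the 25 DHX9 exons that reached 40 counts, those from 182855577 to the 3′ end were lower in both knockdown libraries than in both controls, at knockdown-to-control ratios of 0.428 to 0.527 per 100000. Each of the 7 exons from 182874854 to 182880608 lay in 72.3% to 84.8% of the exon-circle counts, and their ratios were 0.475 to 0.499. At the first 4 exons the groups overlapped and control replicate 1 alone was high: the second had 8.04 and 1.08 per 100000 in the control and 1.41 and 1.79 in the knockdown. A test of whether the 11 DHX9 circles changed unequally (edgeR's diffSpliceDGE, F test) gave an adjusted p of 0.659.

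**Figure D3:**
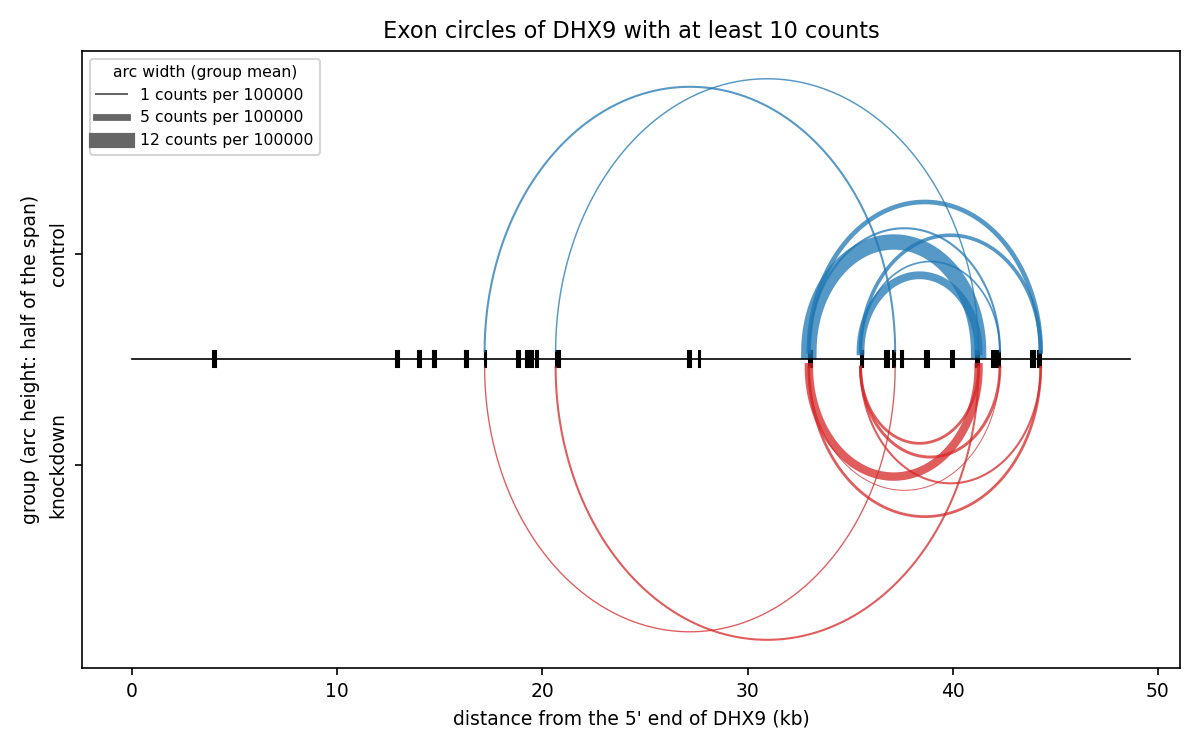
Exon circles of DHX9 with at least 10 counts, drawn as arcs from acceptor to donor against the distance from the 5′ end of the gene in kb, with exons as black boxes. Arcs above the line are control means and arcs below it knockdown means, and arc width shows counts per 100000. The same arcs appear on both sides, and the widest, the 8-exon circle, has a mean of 12.2 in the control and 6.32 in the knockdown.

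DDX60L and DDX60 are interferon-induced helicases that lie next to each other on chromosome 4. DDX60L circles had 53 and 116 counts in the control and 37 and 30 in the knockdown, and DDX60 circles 10 and 23 against 7 and 10. For each, the libraries of the 2 groups overlapped. The leading DDX60L circle, chr4:168400826-168458008, joins 21 exons into 2885 nt and is the longest of the 10 most abundant circles. It had 19 and 66 counts in the control and 18 and 10 in the knockdown, and the high value was that of control replicate 2.

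DDX17, a coregulator of splicing and of microRNA processing, hosted the most abundant helicase circle. Its summed counts were 193 and 183 in the control and 51 and 62 in the knockdown, that is 36.9 ± 5.64 and 16.96 ± 1.53 per 100000 (SD, n = 2). Both knockdown libraries lay below both controls, and the log2 fold change was -0.80 ± 0.32 (edgeR adjusted p = 0.332).

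The leading DDX17 circle, chr22:38494630-38501280, joins 7 exons into 927 nt. It had 66 and 106 counts in the control and 18 and 28 in the knockdown, with a log2 fold change of -1.30 ± 0.37 (edgeR adjusted p = 0.213; 0.0454 with DESeq2). A form from the same acceptor with 2 further exons, chr22:38493710-38501280 (9 exons, 1100 nt), had 15 and 18 counts in the control and 1 and 0 in the knockdown. Its log2 fold change was -4.21 ± 1.07 (edgeR adjusted p = 0.171). At this acceptor the 9-exon form took 15.5% and 12.9% of counts in the control and 4.35% and 0% in the knockdown, where 0 of 29 counts allows a share of up to 11.7% (Wilson). DDX17 had the second smallest p among helicase hosts for unequal change of its circles, but did not pass (edgeR F test, adjusted p = 0.199).

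DDX5, the close paralogue of DDX17, showed how far a host sum can rest on a single library. Control replicate 1 held 83 of its counts and control replicate 2 held 21, beside 13 and 8 for the knockdown libraries. Of these 125 counts, 68 lay in circles that also name another gene. The groups overlapped per 100000, with 10.7 ± 9.76 in the control and 3.32 ± 1.80 in the knockdown. The log2 fold change was -1.32 ± 0.72 (edgeR adjusted p = 0.445). Reads of paralogues can be split between them, which was not tested here.

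The other splicing helicases with at least 40 counts were DDX46, DHX15 and DHX35. DDX46, the U2 snRNP helicase that helps set the branch site, had 63 and 142 counts in the control and 43 and 58 in the knockdown. DHX15, which releases spliceosomes from the intron lariat, had 90 and 95 against 30 and 40, and DHX35 22 and 17 against 4 and 9. For DHX15 and DHX35 both knockdown libraries lay below both controls per 100000, and for DDX46 the groups overlapped. Of the 255 DHX15 counts, 109 lay in circles that name a further gene. DDX46 spread its counts over 9 circles of at least 10 counts, none above 10.5% of its total, and the test for unequal change among them did not pass (edgeR F test, adjusted p = 0.999).

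DDX50 and DDX21 are paralogous nucleolar helicases that lie side by side on chromosome 10, and 48 counts of each were in circles naming more than 1 gene. DDX50 circles had 88 and 152 counts in the control and 68 and 142 in the knockdown, and the log2 fold change was 0.69 ± 0.41 (edgeR adjusted p = 0.476). It was 0.41 without control replicate 1 (edgeR adjusted p = 0.134) and 1.30 without control replicate 2 (1.79e-07). DDX21 circles had 74 and 98 against 31 and 48 counts, lower in both knockdown libraries per 100000. A circle joining exons of both genes, chr10:68913391-68965494 (9 exons, 1513 nt), had 9, 3, 1 and 6 counts. In all, 71 counts lay in circles naming a pair of helicase genes, DDX21 with DDX50 or DDX60 with DDX60L.

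Within DDX50 the leading circle, chr10:68906711-68919981 (7 exons, 1152 nt), had 6 and 47 counts in the control and 25 and 47 in the knockdown. Control replicate 1 was low for it, while the other libraries lay closer together, and its log2 fold change of 1.17 was 0.50 without that library and 2.77 without control replicate 2 (edgeR adjusted p = 5.57e-06). A smaller circle, chr10:68911068-68914204 (4 exons, 629 nt), had 5 and 2 counts in the control and 10 and 14 in the knockdown, with a log2 fold change of 2.23 ± 0.79 (edgeR adjusted p = 0.298). All circles using the donor at 68914204 together had 5 and 5 counts in the control and 16 and 23 in the knockdown, or 0.978 ± 0.113 and 5.77 ± 0.163 per 100000. At the donor at 68946720 the direction was opposite, with 5 and 13 against 1 and 1 counts, or 1.70 ± 0.903 and 0.305 ± 0.0690 per 100000. The leading DDX21 circle, chr10:68959806-68967203 (5 exons, 1003 nt), had 10 and 35 against 9 and 12 counts, and its groups overlapped.

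DDX10, a helicase of small ribosomal subunit assembly, had 101 and 167 counts in the control and 90 and 93 in the knockdown. Its log2 fold change was 0.39 ± 0.38 (edgeR adjusted p = 0.667), and the groups overlapped. It was 0.11 without control replicate 1 (edgeR adjusted p = 0.758) and 0.93 without control replicate 2 (0.000275). DDX10 was the host of 4 circles with at least 40 counts, 3 of which end at the donor at 108723462. Among these, chr11:108688936-108723462 (7 exons, 1117 nt) had 19, 54, 20 and 15 counts, and chr11:108715879-108723462 (3 exons, 643 nt) had 4, 22, 15 and 17. The third, chr11:108673467-108723462 (12 exons, 1779 nt), had 10, 13, 13 and 10 counts.

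The remaining ribosome-assembly hosts with at least 40 counts were DDX31, DHX33 and DDX52. Their counts were 35 and 26 against 5 and 18 for DDX31, 26 and 22 against 16 and 19 for DHX33, and 19 and 19 against 7 and 15 for DDX52. Per 100000 the groups overlapped for DHX33 and DDX52 but not for DDX31, which was lower in the knockdown. The leading DHX33 circle, chr17:5460939-5462546, is a single exon of 1608 nt with 16, 6, 7 and 8 counts.

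DHX29, which helps the small ribosomal subunit scan structured 5′ leaders, was the helicase host whose circles changed unequally. Its summed counts were 94 and 102 in the control and 68 and 96 in the knockdown, that is 19.1 ± 1.11 and 24.3 ± 0.375 per 100000 (SD, n = 2). Both knockdown libraries lay above both controls, though the log2 fold change of 0.66 ± 0.32 did not pass (edgeR adjusted p = 0.406). The F test over its 11 circles with at least 10 counts gave an adjusted p of 0.00723 (edgeR diffSpliceDGE). Of the 20 helicase hosts in that test DHX29 was the 1 that passed (5.0%), against 4.03% of 2335 host genes, and DDX17 and DDX59 (edgeR adjusted p = 0.230) had the next smallest p. The call was lost without knockdown replicate 1 or without knockdown replicate 2, and held when control replicate 1 or 2 was left out.

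The DHX29 circles that differed most begin at the same acceptor, chr5:55281515 (minus strand), and end at different donors. The 5-exon circle chr5:55274614-55281515 (725 nt) had 2 and 1 counts in the control and 21 and 26 in the knockdown. The 7-exon circle chr5:55272087-55281515 (948 nt) had 0 and 1 against 6 and 22 counts. The 10-exon circle chr5:55269413-55281515 (1329 nt) went the other way, with 20 and 18 counts in the control and 4 and 5 in the knockdown. For each of these 3 circles the libraries of the 2 groups did not overlap. The fourth, the 6-exon circle chr5:55273293-55281515 (810 nt), had 2, 2, 2 and 6 counts.

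As a share of the counts at this acceptor (24 and 24 in the control, 35 and 61 in the knockdown), the 5-exon circle took 8.33% and 4.17% in the control and 60.0% and 42.6% in the knockdown. The Wilson intervals were 2.32% to 25.8% and 0.739% to 20.2% in the control, and 43.6% to 74.4% and 31.0% to 55.1% in the knockdown. The 10-exon circle took 83.3% and 75.0% in the control and 11.4% and 8.20% in the knockdown. The 7-exon circle took 0% and 4.17% in the control and 17.1% and 36.1% in the knockdown. Thus the shortest form held the largest share at this acceptor in each knockdown library, and the longest of the 4 in each control library. In knockdown replicate 2 the interval of the 7-exon circle (25.2% to 48.6%) overlapped that of the 5-exon circle. Tested as single circles among 21576, the 5-exon circle had a log2 fold change of 4.41 ± 0.67 (edgeR adjusted p = 0.0869). The 7-exon circle had 5.01 ± 1.10 (edgeR adjusted p = 0.136) and the 10-exon circle -1.53 ± 0.61 (edgeR adjusted p = 0.357).

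**Figure D4:**
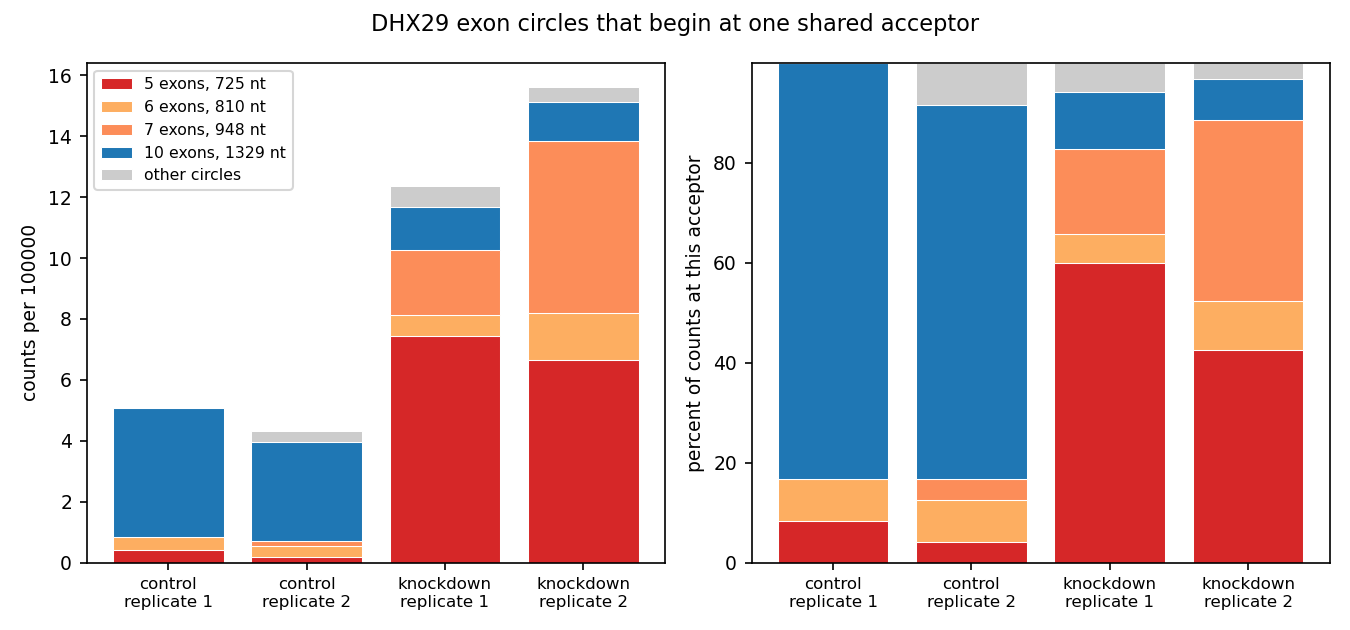
Exon circles of DHX29 that begin at the shared acceptor, stacked by number of exons, for each library, as counts per 100000 (left) and as percent of the counts at this acceptor (right). The 10-exon circle (blue) takes 83.3% and 75.0% in the control libraries and 11.4% and 8.20% in the knockdown, where the 5-exon circle (red) takes 60.0% and 42.6%.

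Circles at other DHX29 sites had values on either side of the control. Those that end at the donor at 55267138 had 47 and 52 counts in the control and 20 and 17 in the knockdown, or 9.65 ± 0.428 and 5.71 ± 1.92 per 100000, and those that end at 55259848 had 10 and 11 against 10 and 13 counts, or 2.05 ± 0.0993 and 3.43 ± 0.147. The most abundant circle at the former donor, chr5:55267138-55272175 (6 exons, 750 nt), had 19 and 18 against 13 and 7 counts, and its groups overlapped. Per exon, the 5 exons from 55274614 to 55281515 were held by exon circles at knockdown-to-control ratios of 1.97 to 1.99 per 100000. Next downstream, 2 forms of the exon at 55273293 had ratios of 0.703 (ending at 55273377, with overlapping groups) and 1.69 (ending at 55273426), and the exon at 55272087 had 0.923. The 3 exons from 55269413 to 55270706 had ratios of 0.691 to 0.699.

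DHX36, a helicase that opens G-quadruplexes in RNA, had the smallest p of the helicase hosts. Its counts were 20 and 52 in the control and 51 and 70 in the knockdown, or 4.23 and 9.34 against 18.0 and 17.9 per 100000. The knockdown libraries lay close together and above both controls, which differed from each other. The log2 fold change was 1.66 ± 0.49 (edgeR adjusted p = 0.215). It passed with no filter on counts (adjusted p = 0.0183) and with limma voom and group weights (0.0227). Without control replicate 1, its lowest library, the log2 fold change was 1.18, and without control replicate 2 it was 2.65.

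No DHX36 circle held more than 10.9% of its counts, and 53 different circles made up the sum. The circle chr3:154295284-154306295 (8 exons, 792 nt) had 0 and 1 counts in the control and 6 and 11 in the knockdown, with a log2 fold change of 4.35 ± 1.15 (edgeR adjusted p = 0.186). Along the gene, the first 8 exons that reached 40 counts had knockdown-to-control ratios of 3.58 to 4.60 per 100000, and the last 3 had ratios of 1.64 to 1.88, with overlapping groups at the last 2. Over those first 8, control replicate 1 lay at 0.423 to 0.635 per 100000, at or below its floor of 3 counts. Control replicate 2 lay at 2.87 to 4.49 and the knockdown libraries at 7.43 to 12.3. The size of these ratios thus depends on the sparse control replicate 1. The test for unequal change of its 3 circles with at least 10 counts gave an adjusted p of 0.393 (edgeR F test).

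DDX6, which represses translation and promotes decapping of mRNAs, had an uneven profile along the gene. Its circles had 98 and 68 counts in the control and 36 and 50 in the knockdown. Per 100000 these were 20.7 and 12.2 against 12.7 and 12.8, a ratio of means of 0.775, and the groups overlapped. The fitted log2 fold change was -0.02 ± 0.36 (edgeR adjusted p = 0.978). The circle chr11:118754705-118758902 (5 exons, 595 nt), at the 3′ side of the gene, had 0 and 7 counts in the control and 10 and 21 in the knockdown (log2 fold change 2.78 ± 1.00, edgeR adjusted p = 0.309). Circles from the acceptor at 118786518, at the 5′ side, had 37 and 32 counts in the control and 8 and 17 in the knockdown. By exon, the 7 exons nearest the 5′ end had knockdown-to-control ratios of 0.323 to 0.480 per 100000, and the last 4 exons ratios of 1.25 to 1.42. The test for unequal change of 6 circles did not pass (edgeR F test, adjusted p = 0.315).

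**Figure D5:**
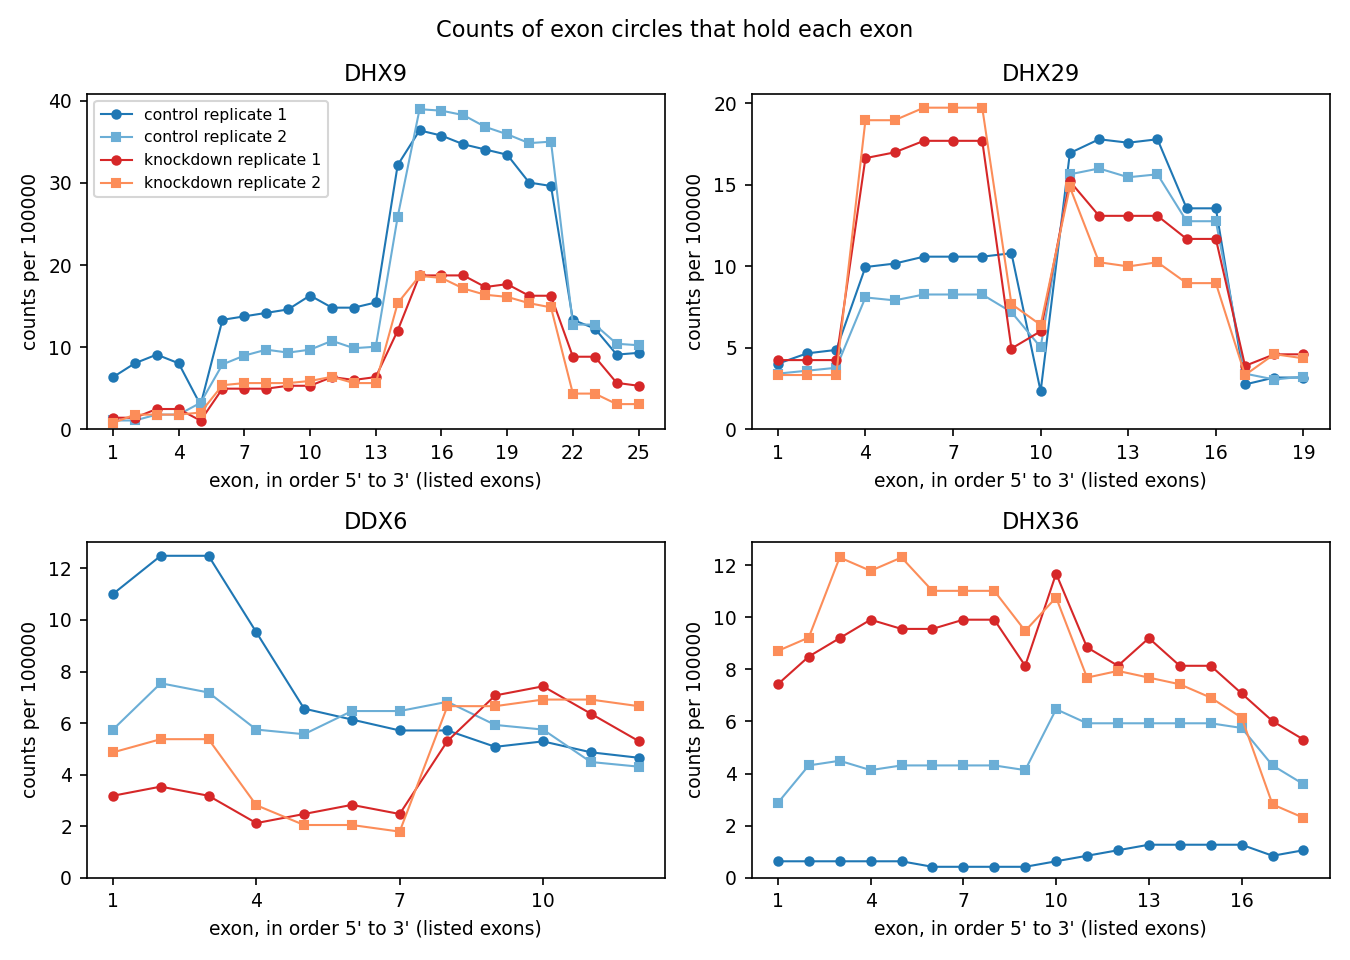
Counts per 100000 of exon circles that hold each exon, for exons with at least 40 counts in order from 5′ to 3′, with 1 line per library (blue, control; red and orange, knockdown). DHX9 is lower in both knockdown libraries except at its first 4 exons, where control replicate 1 alone is high. DHX29 is higher over 5 exons at ratios of 1.97 to 1.99, and DDX6 is lower over its first 7 exons. DHX36 is higher along its first 8, where control replicate 1 is at or below its floor of 3 counts.

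DDX3X, DDX1 and DHX34 complete the hosts of translation, export and decay that are named here. DDX3X, which unwinds structured 5′ leaders during initiation, had 81 and 44 counts in the control and 26 and 52 in the knockdown, and DDX1, a subunit of the tRNA ligase complex, had 24 and 49 against 14 and 26. The groups overlapped for both. DHX34, a factor of nonsense-mediated decay, had 6 and 1 counts in the control and 7 and 5 in the knockdown. Its log2 fold change was 1.71 ± 1.20 (edgeR adjusted p = 0.538), and 3.34 without control replicate 1. The most abundant DDX3X circle, chrX:41337408-41339083, had 6, 19, 4 and 6 counts. All 31 counts of DDX19A, a further host of this role, lay in circles that name another gene.

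Among hosts without an assigned role, DHX57 and DHX32 were lower in both knockdown libraries. DHX57 had 64 and 80 counts in the control and 19 and 14 in the knockdown, or 13.96 ± 0.584 and 5.15 ± 2.22 per 100000 (SD, n = 2). The fitted log2 difference was -1.16 ± 0.45 (edgeR adjusted p = 0.315). DHX32 had 55 and 51 against 17 and 9 counts, with a log2 fold change of -1.04 ± 0.52 (edgeR adjusted p = 0.416). The leading DHX32 circle, chr10:125852293-125881071 (6 exons, 1598 nt), had 20 and 28 counts in the control and 6 and 5 in the knockdown, and its log2 fold change was -1.50 ± 0.53 (edgeR adjusted p = 0.304). Neither gene passed across all hosts with the 4 libraries.

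DDX59 and DHX40 had overlapping groups. DDX59, which has been linked to hedgehog signalling, had 47 and 84 counts in the control and 29 and 36 in the knockdown, and DHX40 had 14 and 31 against 5 and 15. Within DDX59, circles from the acceptor at 200666751 differed by donor. The 6-exon circle chr1:200648439-200666751 (1607 nt) had 13 and 23 counts in the control and 11 and 15 in the knockdown. The 3-exon circle chr1:200659027-200666751 (1073 nt) had 9 and 19 against 2 and 2, with a log2 fold change of -2.10 ± 0.74 (edgeR adjusted p = 0.297).

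The rest of the family was sparse. The other 9 hosts that reached 10 counts were DDX20, DDX42, DHX8, DDX18, DDX47, DDX55, DDX19A, DHX34 and DDX11, with 10 to 39 counts each. All 10 counts of DDX11, a DNA helicase, came from control replicate 1. The 8 hosts below 10 counts (DDX12B, DDX12P, DDX23, DDX24, DDX25, DDX27, DDX54 and DHX30) had 1 to 9 counts each, and 29 of their 38 counts together were in control replicate 1. DDX11 and its copies DDX12P and DDX12B are near-identical in sequence, so their counts are uncertain.

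Across single circles, 111 helicase-hosted circles had at least 10 counts, and 0 of them passed among the 21576 circles tested with edgeR, where 0 of all circles passed (0.0%). At an unadjusted p under 0.05, 5 helicase circles were higher and 7 lower (4.50% and 6.31%), against 9.42% and 4.0% of all circles. DESeq2 called 2 of the 111 higher and 1 lower, against 934 higher and 151 lower of the 21576. The groups did not overlap for 20 helicase circles that were higher and 28 that were lower in the knockdown (18.0% and 25.2%), against 23.2% and 22.9% of all circles. The median log2 fold change of the 111 was -0.63, against -0.39 over all circles. Without control replicate 1 it was -0.64 for the 80 helicase circles then tested, against -0.10. Without control replicate 2 it was -0.19 for the 65 then tested, against -0.18. The 5 with the smallest p among the higher ones were from DHX29, DHX29, DHX36, DDX50 and DDX6, and among the lower ones from DDX17, DDX17, DDX59, DHX32 and DHX9, all given above.

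In structure the helicase circles were mostly exon circles. Exon circles held 88.8% of their counts, against 81.3% over the table, with a count-weighted median of 7 exons and 1125 nt, against 6 exons and 1255 nt over all exon circles. Of their exon-circle counts 79.1% had annotated AG and GT ends, against 80.4% over all. Of 869 circles that name a single gene with a RefSeq span, 855 (98.4%) lay within that span or 1000 nt of it. Over the 103 exon circles with at least 10 counts, log2 fold change and length had a Spearman's rho of -0.179, against 0.0186 over 17790 exon circles of the table, as a description across circles that share the libraries. A further 89 antisense circles named a helicase gene and held 191 counts, and they were left out.

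RNA helicases with other names and proteins reported to act on circles showed no calls either. Of 26 listed symbols of helicases not named DDX or DHX, which include earlier symbols of MTREX and SKIC2, 16 were tested. Their median log2 fold change was -0.01 and 0 passed (1 higher and 0 lower at an unadjusted p under 0.05, edgeR). The smallest p was that of ASCC3, a helicase of ribosome rescue, with 241 and 342 counts in the control and 358 and 457 in the knockdown (log2 fold change 1.41 ± 0.38, edgeR adjusted p = 0.185). The next smallest were those of EIF4A1, the cap-dependent initiation helicase, with 11 and 3 against 0 and 0 counts, and FANCM, a DNA translocase, with 40 and 310 against 178 and 321. All 14 counts of EIF4A1 lay in circles that name another gene. Of 23 listed regulators of circles 18 were tested, with a median of -0.20 and 0 passing (1 higher and 0 lower unadjusted). MBNL2, a splicing regulator, had the smallest p there, with 99 and 81 against 80 and 112 counts (log2 fold change 1.01 ± 0.33, edgeR adjusted p = 0.244). METTL3, the m6A methyltransferase, had 103 and 56 against 19 and 25 counts.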

How the data were processed

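Circular RNA was measured in 4 libraries of radioresistant MDA-MB-468 cells, 2 with a control hairpin and 2 with a hairpin against HNRNPL, by nanopore sequencing of amplified circular cDNA. The authors deposited raw counts per back-splice position, with isoforms collapsed. Per the file's columns, circles were called with CIRI-long; its version, the base caller and the filters are not given in the sources used here. The submitters' processing notes name the build GRCh38.p14 and DESeq2. A second deposited table, a rescaling of the same counts by library total, was not used.

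Host gene sums added each non-antisense circle to every gene it names. Host genes and circles with at least 10 counts were tested with edgeR 4.0.16 (quasi-likelihood, TMM, Benjamini-Hochberg over the whole table, threshold 0.05), and unequal change of circles within a host with diffSpliceDGE over circles that name 1 gene. SE is the absolute log2 fold change divided by the square root of F. The scripts were tested on simulated data. Alternatives used limma 3.58.1, DESeq2 1.42.0, other filters and scalings, and left out each library.

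Named were hosts with at least 40 counts, DHX9 circles with at least 10, the 10 most abundant circles, and the 5 higher and 5 lower hosts and circles with the smallest p. From each comparison list the genes with the smallest p are named, except 1 that is not reported here. The members, roles and lists were chosen with earlier results of these data known. Values over circles or genes are descriptions, and p-values measure the spread between 2 libraries a group.

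Replicate numbers were not shown to pair the libraries. Over 4944 circles, the deviations from the group means correlated at 0.0706 between libraries that share a number. With 2 libraries a group, this cannot exclude that libraries were handled in pairs.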

Additional observations from a re-analysis of the deposited data

How the results depend on the processing

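Calls over the whole table moved with the processing. Those among helicase hosts stayed at 0 or 1 with all 4 libraries and were more with 1 control library left out. With so few helicase hosts tested, a count near 0 does not show that they were stable. The 37 host gene calls became 184 with DESeq2, 17 with DESeq2's size factors in edgeR and 58 with library-size scaling. They became 412 with no filter, 108 with at least 40 counts, 116 with 5 counts in each of 2 libraries, and 400 with voom and group weights. They became 88 over circles that name 1 gene, 78 with the first gene named, 72 over exon circles, and 0 with edgeR's newer dispersion method, where 1263 host genes had an unadjusted p under 0.05. Leaving out 1 library gave 0 to 2776. Calls among helicase hosts went from 0 to 1 (DHX36) with no filter and with voom, and ranged from 0 to 11 when 1 library was left out. Their median log2 fold change of -0.25 became -0.56 with library-size scaling and -0.49 with no filter, and ranged from -0.39 to 0.12 without 1 library.

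Circle calls, 0 in the reported fit, became 1085 with DESeq2, 617 with at least 40 counts, 1404 with 5 counts in each of 2 libraries, 497 over exon circles, 471 with no filter and 320 with voom, and 0 to 6392 without 1 library. Calls among helicase-hosted circles became 3, 1, 4, 2 and 1 under the first 5 of these, and 0 to 20 without 1 library. Host genes with unequal change of circles went from 94 to 58 with the Simes method, and from 1 to 912 without 1 library, with 0 to 8 helicase hosts.

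With replicate number as a block, which the data do not show to pair the libraries, 366 of 8379 host genes passed. Of the 32 helicase hosts, 1 passed. The same block gave calls for 1653 of 21576 circles and for 5 of the 111 helicase circles. It gave unequal change in 536 of 2335 hosts and in 4 of the 20 helicase hosts (DDX17, DDX50, DDX6 and DHX29).

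The difference in library share, -0.0917 percentage points, was -0.0776 over circles that name 1 gene and -0.0663 over exon circles. The sign turned for 3 circles: DDX10 chr11:108688936-108723462 (-0.71 to 0.13 over fits without 1 library, above 0 without control replicate 2 or knockdown replicate 2), DDX21 chr10:68959806-68967203 (-0.84 to 0.29, above 0 without control replicate 2) and DDX59 chr1:200648439-200666751 (-0.0094 with no filter). Of the other values for single hosts and circles, 441 kept their direction and side of the threshold, 61 passed it and 2 no longer did. The causes were not tested. With 2 libraries a group and most helicase circles under 10 counts, depth limits what single circles can show.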
